A study of Mus musculus with 6 samples.

Results

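The genes studied here are the neighbours of Tnc on mouse chromosome 4, a list of 34 genes from Ugcg to Megf9 with Tnc itself left out. They were read from every probe set of an Affymetrix array whose only annotated gene symbol is one of the listed genes. That gave 74 probe sets for 33 genes, of 45037 probe sets and 18193 genes in all. Tnfsf15, which encodes a ligand of the tumour necrosis factor family, had no such probe set and has no value here.

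The arrays hold RNA of 6 tumours grown from GLMT1 cells, a line whose name stands for a lung metastasis tumour of GRS/A mice. The cells were placed under the back skin of male GRS/A mice, with 3 tumours from wild-type hosts (WT) and 3 from tenascin-C-deficient hosts, GRS/A-TgH(TnC) (TNKO). Hosts were 8 weeks old at the start and 10 weeks old in the sample labels, and each was given 100 microlitres of cells at 1e+07 per ml. The labels describe the deficiency for the host alone and do not say that the tumour cells lack Tnc. The RNA of a tumour can come from GLMT1 cells and from host cells, of which the TNKO hosts carry the altered chromosome, and the share of each was not measured here. The sources used here do not say how the altered allele was made, from which strain its flanking DNA came or how often it was backcrossed. In bulk RNA, fewer cells of a type and less RNA per cell cannot be told apart. The labels name no marker by which GLMT1 cells could be recognised. TNKO tumour 3 stood apart in its hair and keratinocyte markers, 8 measured genes with a mean level of 8.06 there and of 6.85 to 6.87 in the other 5 tumours.

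A targeted allele is inherited with the DNA on either side of it, so genes next to a disrupted locus are commonly examined beside the locus itself. The stretch around Tnc is gene-rich on one side and gene-poor on the other. It holds enzymes of haem and lipid synthesis, copper transporters, subunits of the replication, splicing and cell division machinery, plasma proteins made by the liver, ligands of the tumour necrosis factor family, and large genes of the nervous system. The comparison below addresses whether the RNA of these neighbours differed between tumours of TNKO and WT hosts.

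No neighbour passed the test. Of 74 probe sets 0 had an adjusted p under 0.05 by limma, where 0.175% of all probe sets did (0.0422% higher in TNKO hosts and 0.133% lower), and the lowest adjusted p was 0.0672, for Rgs3, a regulator of G protein signalling. The 79 probe sets behind that 0.175% became 73 without WT tumour 2 and 0 without WT tumour 1 or WT tumour 3. They became 1, 4 and 6 without TNKO tumour 1, 2 and 3, so this share did not hold with fewer arrays. Whether that reflects particular arrays or only their smaller number was not tested. At an unadjusted p under 0.05 there were 17 of 74 (23.0%), against 20.3% of all probe sets. Of the 17, 11 were higher in TNKO hosts (14.9%, against 9.53% of all) and 6 lower (8.11%, against 10.8%). The 3 TNKO values lay wholly above or wholly below the 3 WT values in 20 of 74 (27.0%), against 28.0% of all. The 20 were 12 with TNKO higher (16.2%, against 14.2%) and 8 with TNKO lower (10.8%, against 13.8%). In either direction together, the shares of the neighbours were close to those of the whole array. Without WT tumour 1 the 17 became 11, while the share over all probe sets became 15.9%. Without TNKO tumour 3 the 17 became 14, and 0 passed adjustment.

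All differences were very small on the deposited scale. The values are on a scale taken as log2, and the median probe set of the array spanned 5.46e-06 units over the 6 tumours. Differences are therefore printed in millionths of a deposited log2 unit, as TNKO minus WT, or in residual SDs, where 1 is the spread among tumours of the same host genotype for that probe set, and neither can be read as a fold change. The median absolute difference was 1.74 millionths in the neighbours' probe sets and 1.64 in all probe sets. None of the 74 spanned more than 0.01 units. The direction of such small differences rests on how arrays are scaled. As deposited 46 of 74 neighbour probe sets were above 0 (62.2%, against 54.4% of all). With array medians subtracted 1 of 74 was above 0 and with quantile normalization 2 of 74, since over all probe sets the median difference was then -763.7 and -538.1 millionths, against 0.0997 as deposited. Directions below are those of the deposited values, and every neighbour named as higher, except Orm1, was lower under both scalings.

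**Figure D1:**
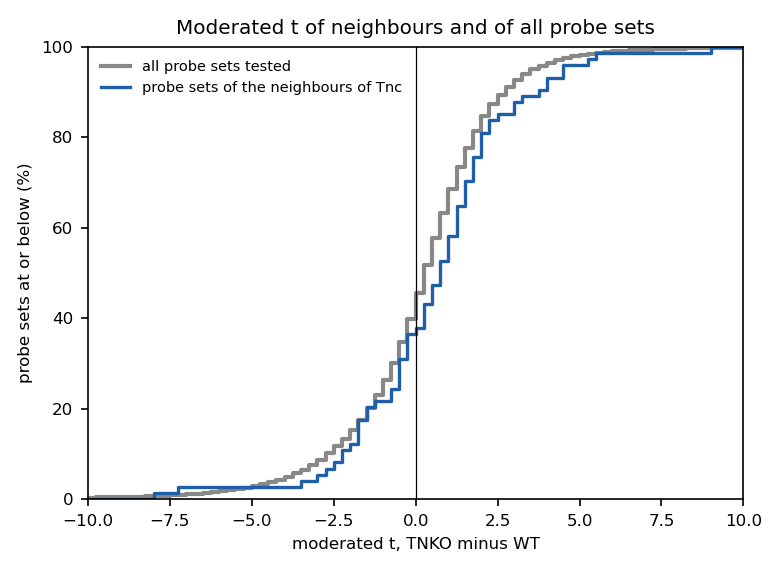
Cumulative share of probe sets (vertical axis, percent) at or below each moderated t of TNKO minus WT (horizontal axis), for the 74 probe sets of the neighbours of Tnc and for all 45037 probe sets, as deposited. The neighbours' curve lies to the right of the other around 0, with 62.2% against 54.4% above 0, while 1 of the 74 was above 0 with array medians subtracted and 2 with quantile normalization.

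Tnc, which encodes tenascin-C, was read by 2 probe sets. The brighter probe set (1416342_at) read 9.01, 9.04 and 9.00 in WT tumours 1 to 3 and 8.80, 8.82 and 8.83 in TNKO tumours 1 to 3. The difference was -200760 millionths, with an adjusted p of 0.0537. By limma the adjusted p was 1.38e-12 with array medians subtracted and 0.0359 when only probe sets above the median level were tested. It was 0.0464 for the mean over the probe sets of Tnc, 0.157 with a replicate block and 0.519 with quantile normalization. The dimmer one (1456344_at) differed by -671.5 millionths (adjusted p = 0.125), also with groups apart. The neighbour with the greatest difference, Orm1, reached 4588 millionths, which is below the first and above the second in size, and Pappa, the first listed gene after Tnc, differed by -402.8.

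Taken by gene, from the brightest probe set of each, 8 of 33 neighbours (24.2%) were at an unadjusted p under 0.05, against 18.4% of all genes. Past adjustment there were 0 of 33, against 0.121% of all genes (0.044% higher and 0.077% lower). Of the 8, 6 were higher in TNKO hosts (18.2%, against 9.99% of all genes) and 2 lower (6.06%, against 8.43%). The 6 were Fkbp15, Hdhd3, Alad, Pole3, Rgs3 and Whrn, and the 2 were Cdc26 and Akna. In the same 8 genes the groups did not overlap, against 26.1% of all genes (15.0% with TNKO higher and 11.1% with TNKO lower). In all, 23 of 33 genes were above 0 (69.7%, against 57.6% of all genes). The median difference was 0.915 millionths in the 33 genes and 0.200 in all genes, while the median absolute moderated t was 1.21 in both. All 8 lay before Tnc in the order of the chromosome, the side that begins with Ugcg: 8 of the 27 measured neighbours there, and 0 of the 6 after Tnc. The difference between the sides was not tested.

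**Figure D2:**
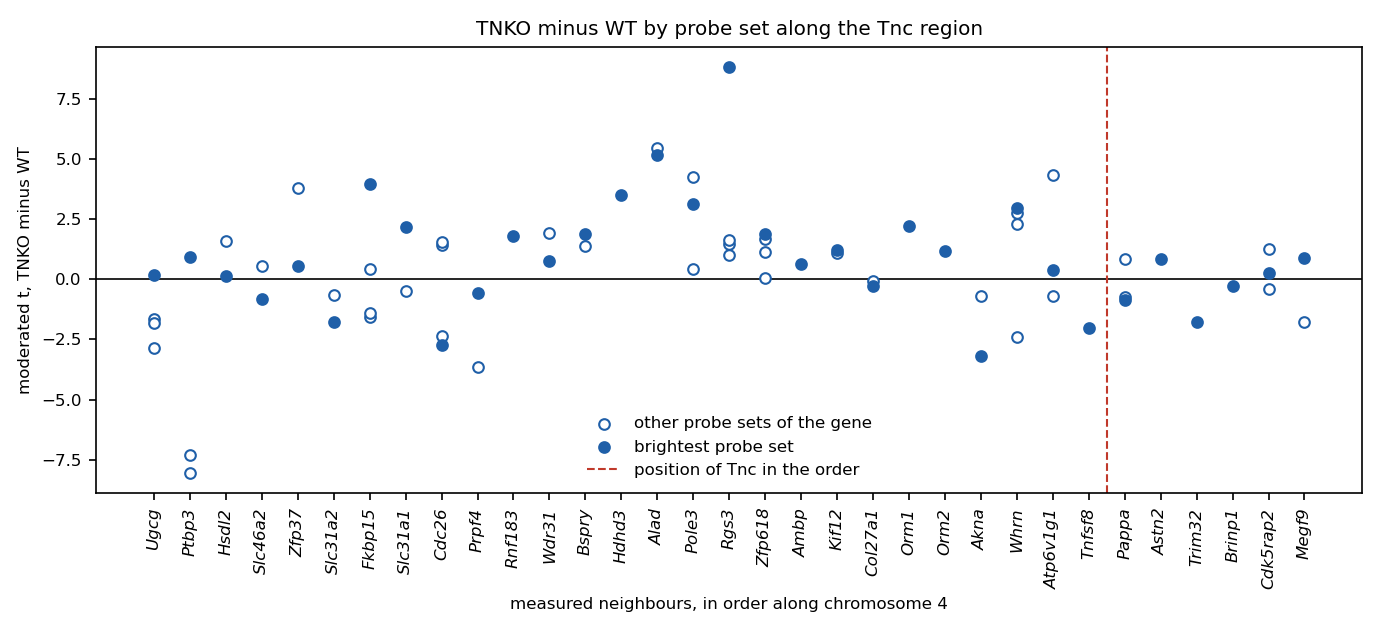
Moderated t of TNKO minus WT (vertical axis, as deposited) for each of the 74 probe sets, with the 33 measured genes in their order along chromosome 4 (horizontal axis). Filled points are the brightest probe set of a gene, open points its others, and the dashed line is the position of Tnc. Hdhd3, which has no other probe set, Alad, Pole3 and Rgs3 have no point below 0, as is also so for other genes. Of the 24 genes with several probe sets, 13 (54.2%) have all on the same side of 0, against 50.9% of all such genes. The dimmer probe sets of Ptbp3 are the lowest.

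In the order of the RefSeq gene table (GRCm38.p6), 10 successive measured neighbours from Rnf183 to Kif12 were above 0 in their brightest probe sets, as deposited. This stretch was picked out after its values were seen. It is broken by 4933430I17Rik, a measured gene that is not on the list, which lies between Pole3 and Rgs3 and differed by -1.10 millionths. With the unlisted genes included the longest run in the interval was 6 of 48 genes, from Rnf183 to Pole3. Inside it Hdhd3, Alad and Pole3, side by side, were each at an unadjusted p under 0.05 and higher. Over all chromosomes 0.278% of windows of 3 neighbouring measured genes were at that threshold in 1 direction, and 0.662% had groups that did not overlap in 1 direction. These windows overlap one another and are given as a description.

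Hdhd3 encodes a hydrolase-like protein of the haloacid dehalogenase family. Relative to the WT mean, its probe set (1425343_at) read -1.49, -2.02 and 3.51 millionths in WT tumours 1 to 3 and 7.29, 4.79 and 8.45 in TNKO tumours 1 to 3. The groups did not overlap, but WT tumour 3 lay close to TNKO tumour 2. The difference was 6.84 millionths (SE 2.07, adjusted p = 0.172).

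Alad encodes aminolevulinate dehydratase, the second enzyme of haem synthesis. Its brightest probe set (1424877_a_at) read 32.7, 13.9 and -46.7 millionths in WT tumours 1 to 3 and 630.1, 384.8 and 340.6 in TNKO tumours 1 to 3. Each TNKO tumour was thus far above each WT tumour, and TNKO tumour 1 was the highest. The difference was 451.8 millionths (SE 93.2, 3.96 residual SDs, adjusted p = 0.108). The other probe set (1457306_at) also kept the groups apart with TNKO above, by 6.75 millionths (adjusted p = 0.103). Among probe sets that kept the groups apart, the brightest of Alad had the greatest difference of any neighbour. With array medians subtracted it was -312.0 millionths and with quantile normalization -77.1.

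Pole3 encodes a histone-fold subunit of DNA polymerase epsilon that also belongs to the CHRAC chromatin remodeller. The brightest of its 3 probe sets (1452743_at) read 0.844, 1.58 and -2.42 millionths in WT tumours 1 to 3 and 6.49, 5.44 and 2.72 in TNKO tumours 1 to 3. The groups did not overlap, and the gap between WT tumour 2 and TNKO tumour 3 was narrow. The difference was 4.88 millionths (SE 1.66, adjusted p = 0.201), and both other probe sets were above 0.

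Rgs3 encodes a protein that speeds the GTPase of G protein alpha subunits and so ends their signal. The brightest of 4 probe sets (1425296_a_at) read 1.41, -4.47 and 3.07 millionths in WT tumours 1 to 3 and 35.0, 42.8 and 30.1 in TNKO tumours 1 to 3. The groups were widely apart, at a difference of 35.99 millionths (SE 4.36, 6.74 residual SDs, adjusted p = 0.0672). When only probe sets above the median level were tested, which shortens the list over which p is adjusted, Rgs3 passed with an adjusted p of 0.0477. In that test 285 probe sets of the array passed, against 79 when all were tested, and 1 of 41 neighbour probe sets did. Of the probe sets tested there, 24.1% were at an unadjusted p under 0.05, against 20.3% when all were tested. The other 3 probe sets of Rgs3 were above 0 by 0.679 to 2.46 millionths, and none of them kept the groups apart. Control probe sets for hybridisation, which detect RNA added to each sample and not mouse genes, had differences in the same direction. All 18 were higher in TNKO hosts, by 0.173 to 61.4 millionths with a median of 16.8, and 16 of 18 kept the groups apart. Their part in the higher values of Hdhd3, Alad, Pole3 and Rgs3 was not tested.

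The start-site windows of these 4 genes, and of 2 start sites that are shared between neighbours, are shown because Hdhd3, Alad and Pole3 lie side by side with differences of 1 direction, Rgs3 had the lowest adjusted p, and the brightest probe sets of each pair differed in 1 direction. They are from RefSeq on GRCm38.p6, of the C57BL/6J strain and not of GRS/A, and hold 250 bases before the annotated start and 50 from it on, 5′ to 3′ on the strand of the gene. Where a gene has several listed starts the outermost is shown. Of the 34 listed genes, 30 had a window. Capitals mark exact matches, on either strand, to 3 core promoter motifs, which are CCAAT for the CCAAT box, GGGCGG for the GC box and TATAAA for the TATA box. The windows lie at chr4:62502151-62502450 (Hdhd3, minus strand), chr4:62520014-62520313 (Alad, minus strand), chr4:62524965-62525264 (Pole3, minus strand), chr4:62559597-62559896 (Rgs3, plus strand), chr4:62360547-62360846 (Fkbp15, minus strand) and chr4:62408576-62408875 (Cdc26, minus strand).
Hdhd3: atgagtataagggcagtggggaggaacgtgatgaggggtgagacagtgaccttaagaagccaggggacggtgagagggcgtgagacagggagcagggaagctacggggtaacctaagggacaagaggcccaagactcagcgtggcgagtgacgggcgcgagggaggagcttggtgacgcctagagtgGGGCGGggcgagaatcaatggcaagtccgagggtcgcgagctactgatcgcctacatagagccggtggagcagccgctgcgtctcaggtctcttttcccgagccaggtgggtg
Alad: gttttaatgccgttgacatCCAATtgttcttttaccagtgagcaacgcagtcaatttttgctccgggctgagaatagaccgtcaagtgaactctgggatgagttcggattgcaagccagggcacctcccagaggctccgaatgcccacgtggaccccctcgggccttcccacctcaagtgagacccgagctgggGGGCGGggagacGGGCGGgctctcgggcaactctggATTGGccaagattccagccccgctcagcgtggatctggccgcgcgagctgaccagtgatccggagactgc
Pole3: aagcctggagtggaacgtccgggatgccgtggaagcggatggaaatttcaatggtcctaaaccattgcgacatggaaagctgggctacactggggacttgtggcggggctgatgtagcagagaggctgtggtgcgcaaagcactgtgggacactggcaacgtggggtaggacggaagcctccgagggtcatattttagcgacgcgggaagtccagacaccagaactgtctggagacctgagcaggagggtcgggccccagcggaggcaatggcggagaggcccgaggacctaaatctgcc
Rgs3: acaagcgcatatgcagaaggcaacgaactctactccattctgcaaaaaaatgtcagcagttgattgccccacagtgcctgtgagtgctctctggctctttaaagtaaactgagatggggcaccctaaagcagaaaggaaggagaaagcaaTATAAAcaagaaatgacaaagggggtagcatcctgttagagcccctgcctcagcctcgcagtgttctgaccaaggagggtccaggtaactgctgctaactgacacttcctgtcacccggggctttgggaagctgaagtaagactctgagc
Fkbp15: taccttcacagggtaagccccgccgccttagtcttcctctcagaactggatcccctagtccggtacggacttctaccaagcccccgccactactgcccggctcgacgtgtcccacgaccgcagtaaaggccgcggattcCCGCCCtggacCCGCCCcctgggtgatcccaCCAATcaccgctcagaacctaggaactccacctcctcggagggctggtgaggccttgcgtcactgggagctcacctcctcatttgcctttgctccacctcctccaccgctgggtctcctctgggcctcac
Cdc26: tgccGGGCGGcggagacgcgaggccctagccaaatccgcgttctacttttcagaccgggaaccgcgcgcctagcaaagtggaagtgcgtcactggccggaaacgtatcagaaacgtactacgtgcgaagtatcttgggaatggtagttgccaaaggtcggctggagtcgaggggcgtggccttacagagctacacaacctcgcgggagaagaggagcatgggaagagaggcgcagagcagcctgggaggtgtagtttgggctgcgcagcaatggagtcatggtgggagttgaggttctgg

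Among all 32851 windows of 300 bases in the table, 37.4% held CCAAT, 35.7% GGGCGG and 13.6% TATAAA. The windows of Hdhd3, Alad and Pole3 held 20, 19 and 17 CpG dinucleotides, against a median of 7 over all windows, and that of Rgs3 held 4. Alad had 2 matches to CCAAT and 2 to GGGCGG, Hdhd3 had 1 to GGGCGG, and Pole3 had 0 matches to any of the 3. The outermost Rgs3 start had 1 match to TATAAA and is 1 of 2 listed for the gene. The window of Fkbp15 shares 204 bases with that of Slc31a1, which is read from the opposite strand, and the window of Cdc26 shares 257 bases with that of Prpf4 in the same arrangement. A match is a description of letters, and no binding was measured here.

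The head-to-head pairs were read next. Fkbp15, a relative of the FK506-binding proteins that is linked to endosome transport, differed by 1.89 millionths (SE 0.459, adjusted p = 0.148) in its brightest probe set (1455339_at). It read -0.547, 0.029 and 0.518 in WT tumours 1 to 3 and 1.88, 2.49 and 1.31 in TNKO tumours 1 to 3. The groups did not overlap, but only 1 of its 3 other probe sets was above 0, and the mean over its 4 probe sets differed by -0.496 millionths. Slc31a1, the copper importer read from the opposite strand, differed by 3.23 millionths (adjusted p = 0.318), with its other probe set below 0.

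Cdc26 encodes a small subunit of the anaphase-promoting complex, the ubiquitin ligase that triggers chromosome separation. Its brightest probe set (1423987_at) read -0.50, 1.58 and -1.08 millionths in WT tumours 1 to 3 and -3.03, -1.68 and -2.37 in TNKO tumours 1 to 3. Each TNKO tumour was lower than each WT tumour, at a difference of -2.36 millionths (SE 0.896, adjusted p = 0.235), or -1.57 without WT tumour 2. Of its 3 other probe sets 1 was below 0 and 2 were above. Prpf4, a protein of the U4/U6 particle of the spliceosome on the other strand, was below 0 in both of its probe sets (-1.12 millionths, adjusted p = 0.807, and -3.42 millionths, adjusted p = 0.166).

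**Figure D3:**
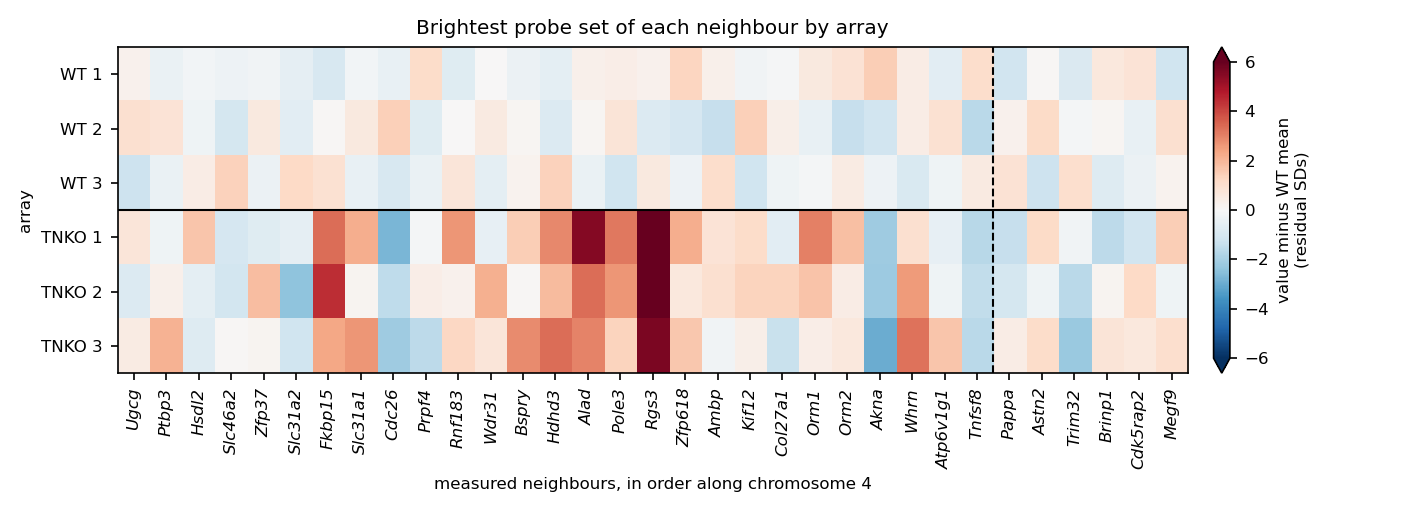
Value of each array minus the WT mean, in residual SDs of the probe set (colour, limited at -6 and 6), for the brightest probe set of the 33 measured neighbours in chromosome order (horizontal axis) and the 6 arrays (vertical axis). The solid line parts WT from TNKO arrays and the dashed line is the position of Tnc. As deposited, the 3 TNKO arrays lie wholly above the WT arrays at Fkbp15, Hdhd3, Alad, Pole3, Rgs3 and Whrn, and wholly below at Cdc26 and Akna. These are 8 of the 33 genes (24.2%), against 26.1% of all genes. Of the 6 genes after Tnc 0 are among them, and the difference between the sides was not tested.

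Ptbp3 gave the lowest moderated t of the region, in the 2 dimmer of its 3 probe sets. These were singled out after their values were seen. The gene encodes an RNA-binding protein of the polypyrimidine tract-binding family, which regulates splicing. The probe set 1424083_at read 2.12, -2.53 and 0.406 millionths in WT tumours 1 to 3 and -12.4, -12.5 and -10.3 in TNKO tumours 1 to 3. The groups lay far apart, at a difference of -11.7 millionths (SE 1.54, adjusted p = 0.0702). The probe set 1424084_at read 12.2, -1.70 and -10.5 in WT tumours 1 to 3 and -63.7, -80.8 and -56.3 in TNKO tumours 1 to 3, a difference of -66.9 millionths (SE 9.80, adjusted p = 0.0758). Both stayed below 0 under both scalings, but so did nearly all neighbour probe sets. Of the 74, 73 were below 0 with array medians subtracted and 72 with quantile normalization. For 1424083_at the unadjusted p by limma was then 0.976 and 0.564, and for 1424084_at it was 0.974 and 0.400. The brightest probe set of Ptbp3 (1455819_at) differed by 1.25 millionths (adjusted p = 0.668), so its probe sets disagree, and none of the 3 passed.

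Akna, an AT-hook protein of lymphocytes and of the centrosome, was, with Cdc26, the neighbour below 0 with groups apart in its brightest probe set. The brighter of its 2 probe sets (1427325_s_at) read 13.9, -11.0 and -2.91 millionths in WT tumours 1 to 3 and -20.3, -20.7 and -28.2 in TNKO tumours 1 to 3. WT tumour 1 stood above the other WT tumours, and all TNKO tumours lay below them. The difference was -23.1 millionths (SE 7.76, adjusted p = 0.196), and the other probe set was also below 0. Aknaos, a noncoding gene named as its antisense partner, comes next in the order, and the strand read by these probe sets was not checked. Whrn, its next listed neighbour, encodes whirlin, a scaffold of the stereocilia of the inner ear. Its brightest probe set (1432555_at) read 4.37, 4.30 and -8.67 millionths in WT tumours 1 to 3 and 9.14, 24.3 and 30.9 in TNKO tumours 1 to 3, a difference of 21.5 (SE 7.77, adjusted p = 0.214). The groups were apart with TNKO higher there and in 2 of its other probe sets, and apart with TNKO lower in the last, so that Whrn gave no single direction. Whrn was named after its values were seen.

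**Figure D4:**
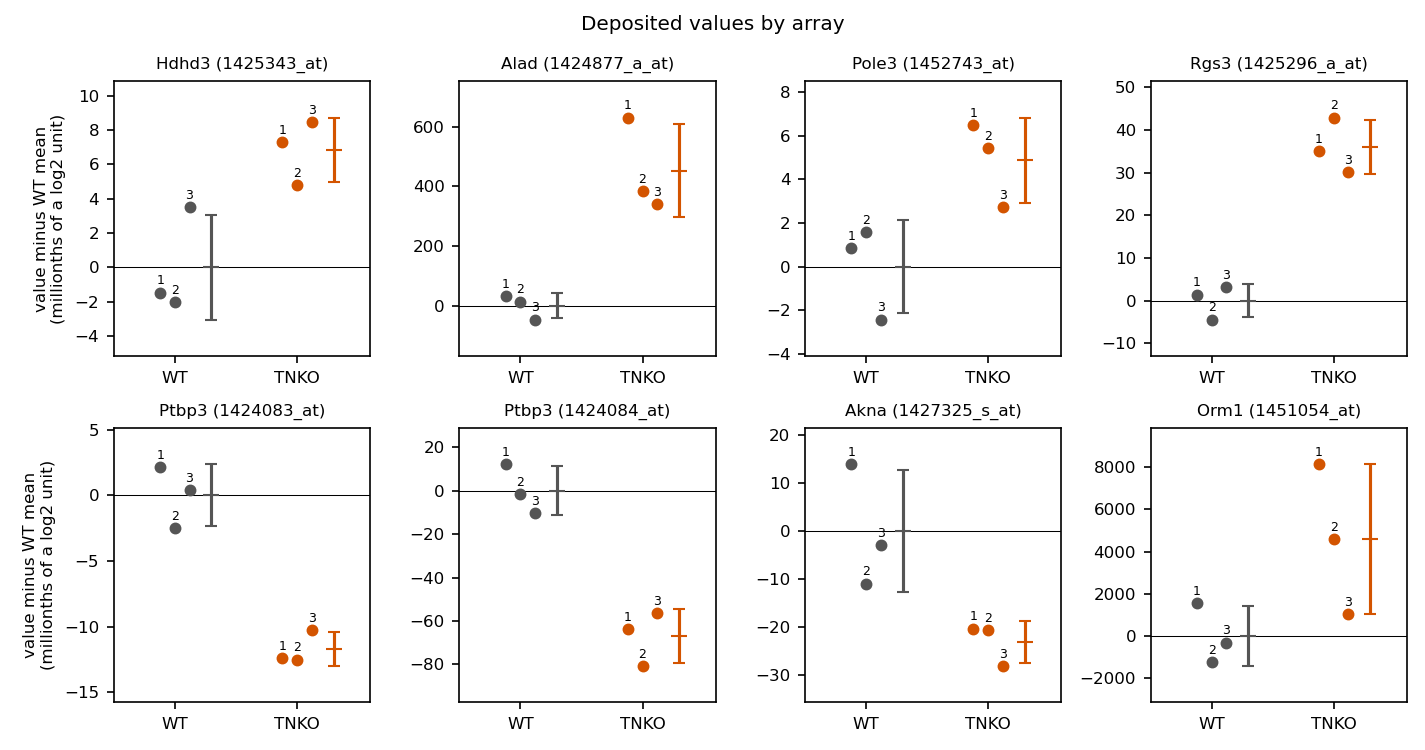
Values of 8 probe sets by host genotype, each as deposited value minus WT mean in millionths of a log2 unit (vertical axes, which differ between panels). Points are single tumours numbered by replicate, and bars give the mean and SD of the 3 tumours of a genotype. TNKO points lie outside the WT range in all 8 panels except that of Orm1, where TNKO tumour 3 lies below WT tumour 1.

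Among the secreted proteins, Orm1 had the greatest difference of all neighbours. It encodes alpha-1-acid glycoprotein, an acute-phase protein of plasma, and has the close copies Orm2 and Orm3 beside it, so that a probe set may read more than 1 of them. The Orm1 probe set (1451054_at) read 1568, -1242 and -325.2 millionths in WT tumours 1 to 3 and 8140, 4585 and 1040 in TNKO tumours 1 to 3. The groups overlapped, since TNKO tumour 3 was below WT tumour 1. The difference was 4588 millionths (SE 2210, adjusted p = 0.309), and 2813 without TNKO tumour 1. The probe sets of Orm2 and Orm3 differed by 0.787 (adjusted p = 0.568) and 0.308 millionths (adjusted p = 0.837).

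The adipocyte markers had a similar order of tumours, with a mean level of 7.39, 7.12 and 7.04 in WT tumours 1 to 3 and of 7.75, 7.62 and 7.29 in TNKO tumours 1 to 3 over 5 measured genes, of which 5 were above 0. Their part in the Orm1 values was not tested. The hepatocyte markers, 5 measured genes, had a mean level of 6.31 in each tumour. Other acute-phase and plasma proteins were above 0 in 13 of 17 genes (57.6% of all genes were). Of the 17, 3 were at an unadjusted p under 0.05 in that direction, against 9.99% of all genes. After adjustment 0 passed, against 0.121% of all genes. Crp, C-reactive protein, differed by 2.15 millionths (adjusted p = 0.111) and Apcs, serum amyloid P, by 1.19 (adjusted p = 0.218).

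Pappa encodes a protease that cleaves binding proteins of insulin-like growth factors. Its brightest probe set (1432591_at) read -683.7, 154.7 and 529.0 millionths in WT tumours 1 to 3 and -834.2, -634.6 and 260.5 in TNKO tumours 1 to 3. The groups overlapped broadly, and the difference of -402.8 millionths was smaller than its SE of 491.8 (adjusted p = 0.684). It was -187.0 without TNKO tumour 1, -734.4 without TNKO tumour 3, -744.6 without WT tumour 1 and -138.3 without WT tumour 3. Of 10 genes of the same growth factor axis 6 were above 0 and 0 passed adjustment. Igf1r, the receptor, differed by -25.5 millionths (adjusted p = 0.194) and Igfbp3 by 35.0 (adjusted p = 0.209). Ambp, which encodes alpha-1-microglobulin and bikunin, and Col27a1, a fibrillar collagen, were among the members given below by range.

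In their brightest probe sets the other listed genes measured nearest to Tnc differed little. Between Tnfsf8 and Pappa lies 8030451A03Rik, a measured gene that is not on the list, which differed by 5.39 millionths (adjusted p = 0.378). Tnfsf8 encodes the CD30 ligand of lymphocytes. Its probe set (1450272_at) read 2.05, -3.04 and 0.993 millionths in WT tumours 1 to 3 and -3.13, -2.77 and -3.06 in TNKO tumours 1 to 3. WT tumour 2 lay among the TNKO tumours, and the difference was -2.99 millionths (SE 1.55, adjusted p = 0.343). Without WT tumour 2 it was -4.51 (adjusted p = 0.0814) and without WT tumour 1 it was -1.97. The receptors Tnfrsf8 and Tnfrsf25 gave 1 value above and 1 below 0. Leukocyte markers, 9 measured genes, were above 0 in 8 and had a mean level of 7.91 in each tumour.

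Atp6v1g1, a subunit of the proton pump of lysosomes, read -2.64, 3.79 and -1.16 millionths in WT tumours 1 to 3 and -2.05, -1.10 and 6.95 in TNKO tumours 1 to 3 (1423256_a_at). TNKO tumour 3 alone stood above the WT range, at a difference of 1.27 millionths (SE 3.45, adjusted p = 0.873). Without TNKO tumour 3 the difference was -1.57 and without WT tumour 1 it was -0.0483. The dimmest probe set of Atp6v1g1 (1450926_at) kept the groups apart with TNKO higher, at 3.37 millionths (adjusted p = 0.133). Its remaining one (1423255_at) differed by -0.433 (adjusted p = 0.751), so the probe sets of Atp6v1g1 disagree. Of 16 other subunits of the pump and its accessory proteins 5 were above and 11 below 0, and 0 passed. Atp6v1c1 differed by -7.77 millionths (adjusted p = 0.107).

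Astn2, an astrotactin of migrating neurons, read 0.114, 1.45 and -1.57 millionths in WT tumours 1 to 3 and 1.47, -0.308 and 1.39 in TNKO tumours 1 to 3 (1450309_at). The groups overlapped, at a difference of 0.853 millionths (SE 1.05, adjusted p = 0.693). It was 1.58 without WT tumour 2, 0.0697 without WT tumour 3, 0.542 without TNKO tumour 1 and 1.43 without TNKO tumour 2. Trim32, a ubiquitin ligase of muscle whose gene lies inside Astn2, read -5.50, -0.779 and 6.28 in WT tumours 1 to 3 and -1.21, -10.1 and -14.1 in TNKO tumours 1 to 3 (1427476_a_at). TNKO tumour 1 lay within the WT range, and the difference was -8.48 millionths (SE 5.13, adjusted p = 0.401), or -5.34 without WT tumour 3. Skeletal muscle markers, 8 measured genes, had mean levels of 6.96 to 7.16 in WT tumours and of 6.39 and 6.48 in TNKO tumours 1 and 2, against 7.13 in TNKO tumour 3. Their part in the Trim32 values was not tested.

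By role, the group of haem, copper and lipid metabolism has 6 measured neighbours. It holds Alad and Hdhd3, and a role of Hdhd3 in these pathways was not examined here. Of the 6, 5 were above 0 (83.3%, against 57.6% of all genes). Slc31a2, a relative of the copper importer, was the exception. It read -0.655, -0.798 and 1.45 millionths in WT tumours 1 to 3 and -0.639, -2.96 and -1.48 in TNKO tumours 1 to 3 (1416654_at), with overlapping groups and a difference of -1.69 millionths (SE 0.995, adjusted p = 0.398). It was -0.967 without WT tumour 3 and -1.06 without TNKO tumour 2. Ugcg, glucosylceramide synthase, differed by 0.915 millionths (adjusted p = 0.952) in its brightest probe set, while its 3 others were below 0.

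The pathways of the metabolic neighbours gave no call. Other enzymes of haem synthesis were above 0 in 6 of 7, as Alad was, where 57.6% of all genes were. Uros, a later enzyme of the pathway, differed by 7.01 millionths (adjusted p = 0.139). Other copper genes were above 0 in 5 of 13, with Atp7b, a copper exporter, at 4.44 millionths (adjusted p = 0.0982) and Cox11 at -11.2 (adjusted p = 0.156). Glycosphingolipid genes were above 0 in 8 of 13, with 0 at an unadjusted p under 0.05, where 18.4% of all genes were.

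The 8 neighbours that act on RNA, chromatin and cell division were above 0 in 5, and 3 of them (Pole3, Cdc26 and Akna) were at an unadjusted p under 0.05, where 18.4% of all genes were. At that threshold the other roles held 2 of 6 metabolic genes, 0 of 5 secreted proteins, 1 of 3 genes of cytokines and signalling, 1 of 4 neural and sensory genes and 1 of 7 genes of ubiquitin ligases, trafficking and other roles. Groups this small give no comparison of roles. Partner lists of the RNA and division genes likewise held no gene past adjustment. Of the anaphase-promoting complex 10 of 15 other genes were above 0, with Cdc23 at 7.52 millionths (adjusted p = 0.118) and Fzr1, an activator of the complex, at -14.2 (adjusted p = 0.153). Other proteins of the U4/U6 particle and the tri-snRNP were above 0 in 4 of 8, and other subunits of polymerase epsilon and CHRAC in 3 of 6.

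The remaining 18 members had differences between -1.70 millionths, for Brinp1, and 4.84, for Bspry, in their brightest probe sets. Of them 14 were above 0 and 4 below, and their adjusted p ran from 0.318 to 0.961. The groups overlapped in each of them, where 26.1% of all genes had groups that did not overlap. Both follow from the choice of genes given one by one, which took out the highest and lowest moderated t and Whrn. Besides those already given they are Hsdl2, Slc46a2, a thymic transporter, the zinc finger genes Zfp37 and Zfp618, the ring finger gene Rnf183, Wdr31, the kinesin Kif12, Cdk5rap2 of the centrosome, and Megf9. Of the 24 neighbours with several probe sets, 13 (54.2%) had all of them on the same side of 0, against 50.9% of all such genes. Rgs3 and Zfp618 did so with 4 of 4 above 0, and Pole3 with 3 of 3.

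The same stretch holds 15 measured genes that are not on the list, read by 29 probe sets. Of these 0 passed and 3 (10.3%) were at an unadjusted p under 0.05, against 0.175% and 20.3% of all probe sets. Gm12596 differed by 8.18 millionths (adjusted p = 0.168), and Mup10, of the major urinary protein cluster whose many copies cannot be told apart by a probe set, by 52.3 (adjusted p = 0.189). Tlr4, the receptor for bacterial lipopolysaccharide, which lies after Trim32, differed by -24.5 (adjusted p = 0.285) in its brightest probe set and by -7.09 (adjusted p = 0.139) in another. Of 1038 genes of chromosome 4 outside the stretch, 171 (16.5%) were at an unadjusted p under 0.05 and 1 passed adjustment (0.0963%), against 18.4% and 0.121% of all genes.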

How the data were processed

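In the deposited table each probe set has 1 value for each array, read here as log2 because of its range, and the authors had normalized the values before deposit. Per the submitters' processing notes, R 2.7.2 was used. How probe values were summarized and normalized, and which logarithm was taken, is not given in the sources used here. Depth does not apply to arrays, whose number sets the precision. The labels' protocols give 100 ng of total RNA as the input for labelling.

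After 64 control probe sets were left out, limma 3.58.1 (R 4.3.3) fitted TNKO minus WT on the deposited values of the other 45037, with lmFit and an eBayes step that used neither a trend nor robust moderation. Tests were two-sided, and p was adjusted by Benjamini-Hochberg over all 45037, with a threshold of 0.05. The platform annotation of 2016 gave 1 symbol to 34945 of them, several to 932 and none to 9160. Identifiers changed 0 member symbols. A gene was read from the probe set with the highest mean over the 6 arrays. RefSeq gave the order of genes, since the array table names no build.

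The members and lists were chosen with earlier results of these data known. By a rule, values are given one by one for the 5 highest and 5 lowest moderated t, the 5 greatest absolute differences and the 2 measured members nearest to Tnc on each side. From partner lists up to 2 genes with the smallest p are named. The labels call the tumours biological replicates. Replicate numbers were not taken as pairs, since they are not stated to pair animals. The deviations of same-numbered arrays correlated at 0.0289, -0.0157 and 0.00531. Alternatives were 2 scalings, a trend or robust moderation, a filter on dim probe sets, a replicate block, a gene's mean over its probe sets, and each array left out. The procedure was tested on simulated data.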

Additional observations from a re-analysis of the deposited data

How the results depend on the processing

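The count of 0 neighbour probe sets past adjustment held under each alternative except the test of brighter probe sets. There it was 1 of 41, for Rgs3 (adjusted p = 0.0477, against 0.0672 to 0.990 under the other settings). Over the whole array 285 probe sets passed in that test, against 79 when all were tested. With array medians subtracted, neighbour probe sets at an unadjusted p under 0.05 numbered 0 (of 17) and those with groups apart 1 (of 20), and with quantile normalization 0 and 6. The unlisted genes had 0 probe sets at that threshold under both (of 3). Over all probe sets the shares at that threshold were then 0.193% and 1.31%, and those with groups apart 2.13% and 15.5%. With each array left out the 17 became 11 (without WT tumour 1) to 16, the 20 became 26 to 30 (36.2% to 40.9% of all probe sets), the 3 became 2 to 4, and the 0 stayed 0. With the replicate block the 17 became 14, the unlisted 3 became 2, and the 79 calls over all probe sets became 0, as they did with quantile normalization. Fkbp15 (adjusted p = 0.294 by limma) and Whrn (adjusted p = 0.374 by limma) then missed the unadjusted threshold too.

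Subtracting array medians moved the difference of every probe set by the same amount, so which directions turned followed from the deposited differences alone. Among the named neighbours, those that turned were Pole3 (-758.9 millionths), Hdhd3 (-756.9), Fkbp15 (-761.9), Alad (-312.0), Rgs3 (-727.8), Atp6v1g1 (-762.5), Astn2 (-762.9) and Whrn (-742.3). With quantile normalization they were -644.5, -707.8, -425.9, -77.1, -458.5, -2248, -408.9 and -511.0 in the same order, and Orm1 stayed above 0 under both scalings. The mean over probe sets turned Fkbp15 (-0.496). Leaving out TNKO tumour 3 or WT tumour 1 turned Atp6v1g1 (-1.57 and -0.0483 millionths), whose values with each array left out ran from -1.57 to 3.17.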
